A study of Mus musculus with 4 samples.

Results

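The olfactory receptor genes of mouse chromosome 7 were followed at the nuclear envelope (NE) of primary hepatocytes. They were taken as the protein-coding genes of the NCBIM37 (mm9) annotation that lie on chromosome 7 and whose symbol begins with *Olfr*. This gave 240 genes of the 22367 protein-coding genes on chromosomes 1 to 19, X and Y. Another 873 *Olfr* genes lie on other chromosomes, and chromosome 7 holds 1832 protein-coding genes of other kinds. The rule used symbol and chromosome alone and no measured value, though it was chosen with earlier results of these data known.

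Hepatocytes came from WT mice and from mice lacking *Tm7sf2* (NET47), both on a C57BL/6 background and 12 to 16 weeks old. The cells were held for 24 h with a lentivirus that encoded either lamin B1 fused to Dam methylase (Dam-LaminB1) or Dam methylase by itself, and were harvested 60 h after transduction. Dam methylates the adenine of GATC sites, so that DNA close to the lamina is marked by the fusion, and the unfused enzyme measures how open each stretch of DNA is. Each genotype has 1 Dam-LaminB1 library and 1 Dam only library, 4 in all, and DNA of 4 mice was pooled for every library. With no replicate library, no difference between the genotypes carries an error or a p-value, and genes within a genotype are not replicates of it. The knockout is of the whole animal, the cells were in culture during labeling, and cells that the virus did not reach carry no label.

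The data are 4 lists of positions: the lamina-associated domains (LADs) of WT and of KO, and the differential regions (DRs), which are the stretches of at least 10 kb that lie in a LAD of one genotype and outside the LADs of the other. A gene was called PI (periphery to interior) when its span touched a WT-only DR, IP when it touched a KO-only DR, and AMB when it touched both. The others were called PP when they touched a LAD in both genotypes and II when they did not. The lists hold no signal, score or read number, so a LAD is either present or absent at a gene, and the depth behind a call is unknown. The study states that the KO was sequenced less deeply than the WT. Neither the loss of *Tm7sf2* nor hepatocyte markers can be checked from positions alone.

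Olfactory receptors are G protein-coupled receptors that sit in the cilia of sensory neurons of the nose and bind odor molecules. Each such neuron expresses a single receptor gene from a single allele, and the rest of the family is kept silent in heterochromatin. Most of the genes are short, have an intronless coding sequence and stand in tandem clusters. Mammals have class I receptors, related to those of fish, and class II receptors. In the mouse most class I genes stand in a cluster on chromosome 7 around the beta-globin genes. Most of the family has no known role in the liver.

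Of the 240 olfactory receptor genes of chromosome 7, 212 overlapped LADs in both genotypes, against 6286 of all 22367 protein-coding genes. A WT LAD overlapped 231 of the 240 spans, against 30.4% of all protein-coding genes, and a KO LAD overlapped 216, against 41.7% of all genes. WT LADs held 230 spans whole (19.8% of all genes), and KO LADs held 213 whole (21.9% of all genes). By class, 211 genes (87.9%) were PP, against 17.9% of all genes. The PI class held 15 genes (6.25%, all genes 5.43%), the IP class 3 genes (1.25%, all genes 17.1%), the AMB class 0 genes (all genes 2.96%) and the II class 11 genes (4.58%, all genes 56.6%). Each of the 15 PI spans lay 100% in WT-only DRs and 0% in KO LADs. With an overlap of 1 base the share of PI genes was near that of all genes, while the share of IP genes was below it. Both shares depend on the WT LADs, because a PI call needs a WT LAD and an IP call needs bases outside one. With 230 spans whole in WT LADs, few receptor genes could be called IP. Among genes that overlapped a WT LAD, 15 of 231 receptor genes were PI, against 1215 of 6805 of all genes. When at least 50% of the span had to lie in DRs, or the transcription start alone was used, the same 15 receptor genes were PI, whereas the share of all genes fell to 2.23% under each setting. The spans were short, with a median of 0.966 kb against 11.6 kb for the other genes of chromosome 7, and a short span has less room to touch a DR or to cross a border. Of the 240 genes, 221 had their coding sequence in 1 exon, and 120 stood on each strand.

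The genes stood in 6 clusters, taken as runs of at least 5 genes with no gap over 500 kb. The clusters held 236 of the 240 genes in 5.54 Mb, or 3.64% of the chromosome. WT LADs covered 97.5% of the cluster bases and KO LADs 89.8%, whereas on chromosome 7 as a whole the coverage was 52.7% in WT and 50.8% in KO. Of the WT LAD bases in the clusters, 9.06% lay outside KO LADs, below the 14.9% of the rest of chromosome 7 and the 12.9% of the genome. The WT had 10 LADs on the clusters and the KO had 30, and the KO also had more LADs on chromosome 7 as a whole, 874 against 403 in WT. Between neighboring receptor genes of a cluster, the step from inside to outside a LAD or back was made 6 times in WT and 24 times in KO, over 230 neighbor pairs. A receptor gene that lay whole in a LAD stood a median of 324 kb from its nearer border in WT (230 genes) and 103 kb in KO (213 genes).

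**Figure D1:**
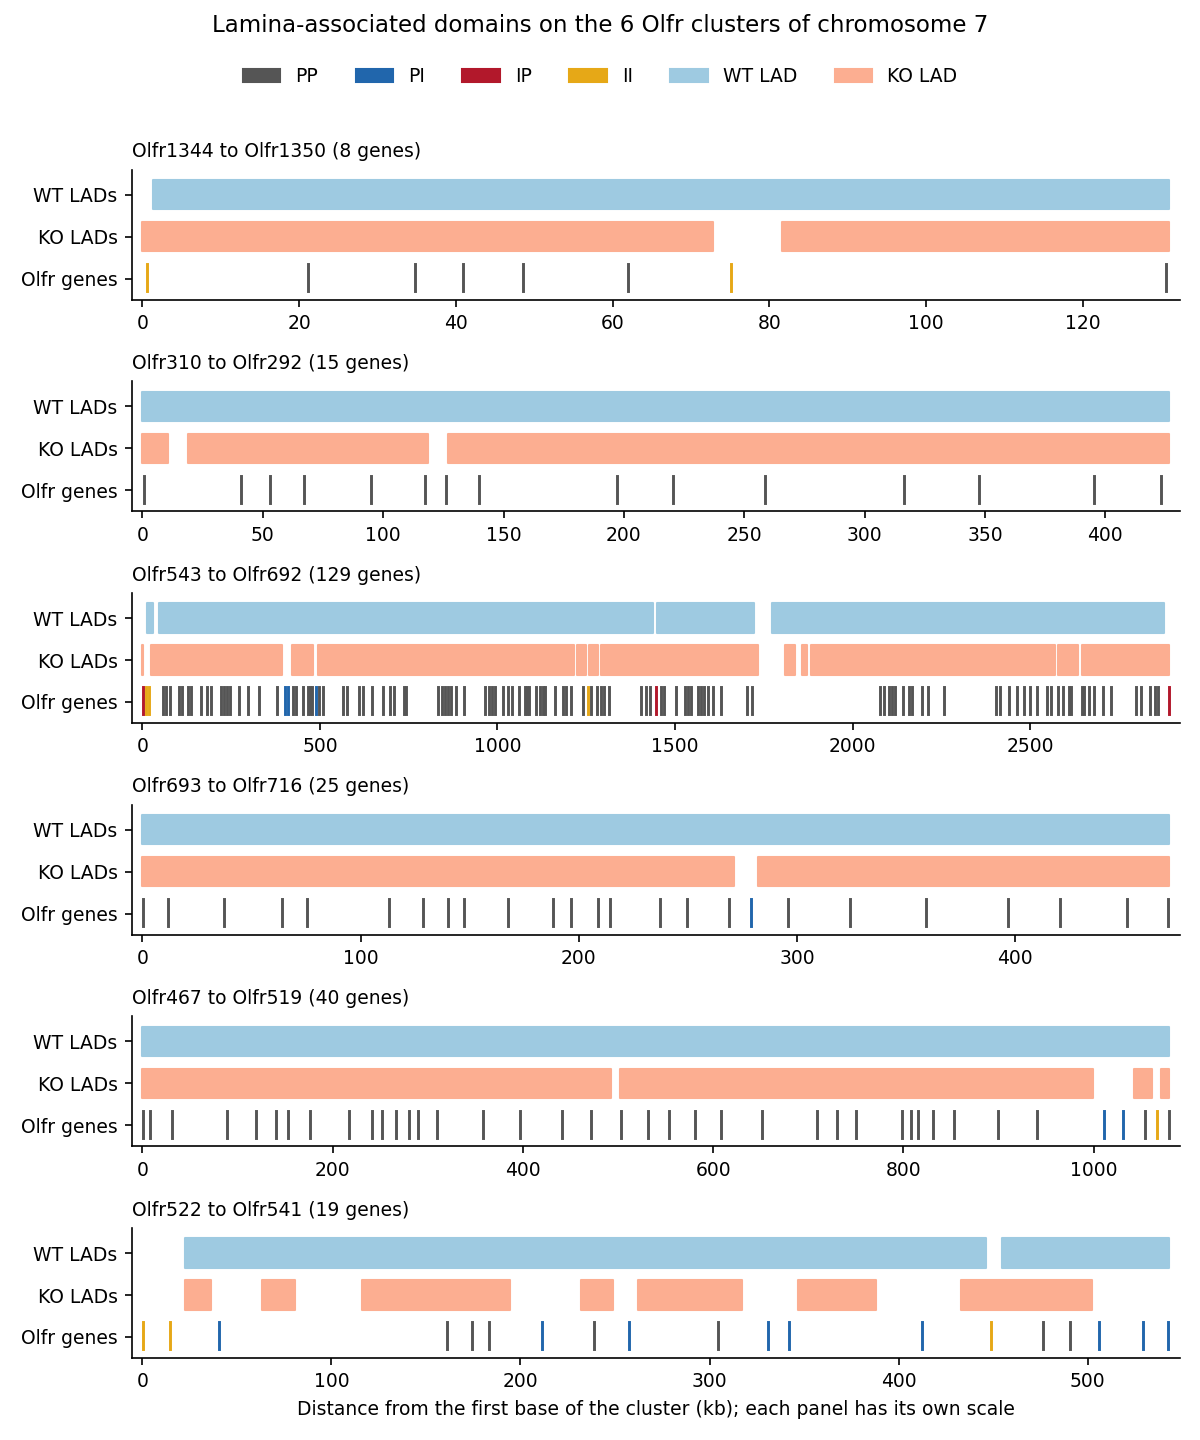
WT and KO LADs over the 6 olfactory receptor clusters of chromosome 7, with distance in kb from the first base of each cluster on the x axis (each panel has its own scale) and each receptor gene as a line colored by class. The first 5 clusters are covered almost throughout in both genotypes, whereas the KO LADs of the cluster *Olfr522* to *Olfr541* are split into 7 pieces that cover 53.5% of it.

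The cluster nearest the start of the chromosome ran from *Olfr1344* to *Olfr1350* (chr7:6392547-6523630, mm9) and held 8 genes, of which 6 were PP. A WT LAD of 142 kb held 7 of them whole. The first gene, *Olfr1344*, lay whole in a KO LAD and 0.259 kb outside the WT LAD. *Olfr1349* lay in the WT LAD and in a gap of 8.70 kb between the KO LADs. Both were II because these differences were shorter than 10 kb. WT LADs covered 99.0% of the cluster and KO LADs 93.4%.

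The next cluster, *Olfr310* to *Olfr292* (chr7:93417240-93843894), held 15 genes, and all 15 were PP. A single WT LAD of 2324 kb covered it and also held the lone pair *Olfr291* and *Olfr290* (chr7:92002083-92065238), which were PP as well. In the KO, 3 LADs lay on the cluster, the longest of 699 kb, and covered 96.1% of it. No DR touched the cluster. The gaps between the KO LADs measured 8.55 kb and 8.02 kb, and the span of *Olfr303* lay almost whole in one of them, with 1.058% of its bases in a KO LAD, so that its PP call rests on that small overlap.

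The largest cluster, *Olfr543* to *Olfr692* (chr7:109625287-112517869), is the class I cluster and held 129 genes in 2893 kb. Of these, 120 (93.0%) were PP, 3 were PI, 3 were IP and 3 were II. WT LADs covered 96.2% of it and KO LADs 92.6%, and 5.83% of its WT LAD bases lay outside KO LADs. It carried 4 LADs in WT and 12 in KO, and the longest was 1392 kb in WT and 720 kb in KO. The long WT LAD held 75 of the receptor genes, from *Olfr547* to *Olfr65*, and 6 KO LADs lay over it. The longest receptor gene of the chromosome, *Olfr78*, lies in this stretch. *Olfr78* encodes a receptor for short-chain fatty acids that is also expressed outside the nose, in the carotid body and kidney. Its span of 18.8 kb lay whole in LADs of both genotypes, 217 kb from the nearer border in WT and 111 kb in KO.

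The PI genes of the class I cluster were few and stood near each other. *Olfr568* and *Olfr569* shared a WT-only DR of 29.3 kb, and *Olfr576* lay in a WT-only DR of 12.5 kb. In the other direction, *Olfr543* and *Olfr692*, the first and the last gene of the cluster, lay 100% in KO LADs and 0% in WT LADs. *Olfr543* lay in a KO LAD of 46.4 kb that had no WT counterpart, and the border of that LAD fell 0.002 kb beyond the start of the gene. *Olfr692* lay in a stretch of 22.9 kb by which a KO LAD reached further than the WT LAD. The third IP gene, *Olfr631*, lies inside the cluster. Its span of 14.9 kb had 26.6% in WT LADs and 100% in KO LADs, and a WT gap of 10.9 kb was covered by a LAD in the KO. Next to *Olfr543* stood *Olfr544*, a receptor for azelaic acid with reported expression in liver and fat, which lay in neither list, 2.11 kb from the nearest WT LAD and 6.20 kb from the nearest KO LAD. Its neighbor *Olfr545* lay in a WT LAD and outside KO LADs, in a stretch of 9.32 kb that is too short for a DR.

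The class I cluster surrounds other gene families. All 5 beta-globin genes, *Hbb-b2*, *Hbb-b1*, *Hbb-bh2*, *Hbb-bh1* and *Hbb-y*, lay 100% in LADs of both genotypes and were PP. *Hbb-b1* and *Hbb-b2* encode adult beta-type chains of hemoglobin, and *Hbb-bh1* and *Hbb-y* encode embryonic ones. Of the 13 *Trim* genes, which encode tripartite motif proteins with roles in antiviral defense, 8 were PP (*Trim21*, *Trim68*, *Trim12c*, *Trim30a*, *Trim30c*, *Trim30d* and 2 entries named *Trim30b*). A further 4 were PI, namely *Trim5*, *Trim12a*, *Trim34a* and *Trim34b*, and *Trim6* was II. *Trim5* lay 98.4% within a WT-only DR, whereas *Trim12a* did so for 8.59%. The 2 WT-only DRs over these *Trim* genes measured 38.1 kb and 18.9 kb and held no receptor gene, and the nearest receptor gene stood 53.6 kb from the first. The *Trim* genes of this stretch are close copies of each other. Of the 50-base tags at GATC sites, 39.9% in the first DR and 66.0% in the second were unique among such tags of the genome. Over the cluster the share was 74.0%.

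**Figure D2:**
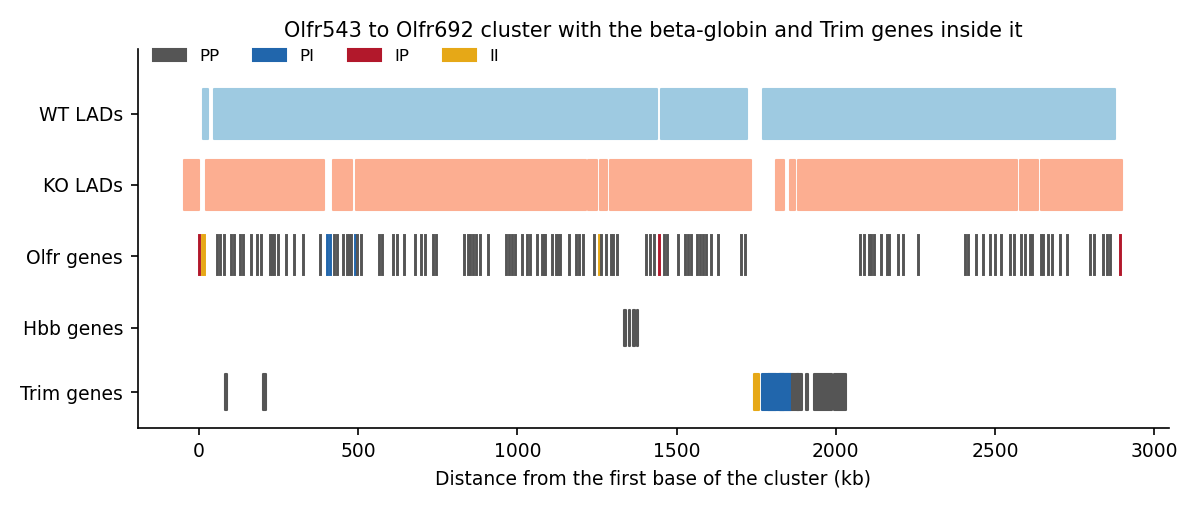
The class I cluster *Olfr543* to *Olfr692*, with distance in kb from its first base on the x axis. Rows give the WT LADs, the KO LADs, the receptor genes, the *Hbb* genes and the *Trim* genes, colored by class, with short genes widened to be visible. The 5 *Hbb* genes lie in LADs of both genotypes, and the PI *Trim* genes stand where no receptor gene lies.

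The following clusters were held almost whole. *Olfr693* to *Olfr716* (chr7:113821048-114291843) had 24 PP genes of 25, and its LAD cover was 100% in WT and 97.6% in KO. It holds *Olfr2*, the I7 receptor for octanal, and *Olfr17*, the P2 receptor, both long used in studies of receptor choice and axon targeting. Both lay 100% in LADs of both genotypes. The 1 PI gene, *Olfr6*, lay in a WT-only DR of 11.3 kb that opened between KO LADs of 326 kb and 563 kb. *Olfr467* to *Olfr519* (chr7:114958094-116037934) had 37 PP genes of 40, and its LAD cover fell from 100% in WT to 94.4% in KO. Its PI genes, *Olfr514* and *Olfr516*, shared a WT-only DR of 43.3 kb. *Olfr518* lay nearby in a WT-only stretch of 8.73 kb and was II. All 3 genes that lay outside KO LADs in this cluster thus stood at its far end, and the last gene, *Olfr519*, was again PP. Among all receptor genes of chromosome 7, *Olfr503* and *Olfr504* of this cluster were closest to genes of the class I cluster. Their coding sequences were 97.1% identical to *Olfr658* and 95.6% identical to *Olfr657*, respectively.

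The cluster nearest the far end of the chromosome differed from the others. *Olfr522* to *Olfr541* (chr7:147347838-147891166) lies 4.63 Mb from the chromosome end and held 19 genes in 543 kb. Of these, 9 were PI, 7 were PP and 3 were II. It thus held 9 of the 15 PI receptor genes of chromosome 7 and 7.92% of all its receptor genes. WT LADs covered 94.2% of the cluster and KO LADs 53.5%, and 44.9% of its WT LAD bases lay outside KO LADs, against 2.40 to 6.70% in the other 5 clusters. Without this cluster, 204 of 221 genes were PP and 6 (2.71%) were PI, and 5.31% of the WT LAD bases of the clusters lay outside KO LADs.

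In WT, 2 LADs of 423 kb and 98.3 kb held 11 and 5 of the 19 receptor genes. In KO, 7 LADs of 13.3 to 78.2 kb lay on the cluster and held 8 receptor genes between them. The PI genes were spread along it and alternated with PP genes, and 3 of the 9 stayed PI when LADs were joined across gaps of up to 50 kb. *Olfr524* lay in a WT-only DR of 27.4 kb, *Olfr530* in one of 37.5 kb, and *Olfr532* in one of 13.5 kb. *Olfr535* and *Olfr536* shared a DR of 29.4 kb, and *Olfr538* lay in one of 45.1 kb. *Olfr539*, *Olfr45* and *Olfr541*, the last 3 genes, shared the longest, of 51.1 kb, which was the trimmed end of a WT LAD. A further DR of 35.6 kb held no receptor gene but covered part of *5830411N06Rik*, which was PI like its neighbor *Cd163l1*, a scavenger receptor gene of the CD163 family. The 7 PP genes were *Olfr525*, *Olfr527*, *Olfr60*, *Olfr531*, *Olfr533*, *Olfr61* and *Olfr53*, and they stood 6.09 to 32.9 kb inside the nearer border of their KO LAD. The 15 PI receptor genes of chromosome 7 stood 1.42 to 40.1 kb from the nearest KO LAD, with a median of 10.8 kb.

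**Figure D3:**
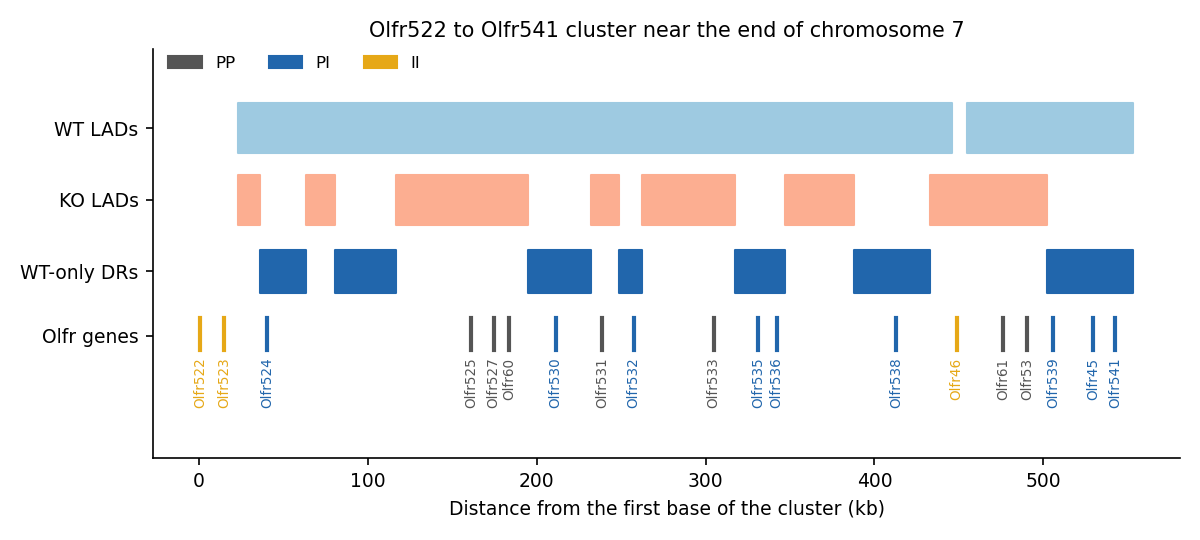
The cluster *Olfr522* to *Olfr541*, with distance in kb from its first base on the x axis. Rows give the WT LADs, the KO LADs, the WT-only DRs and the receptor genes, colored by class. The 7 WT-only DRs alternate with 7 KO LADs, and 6 of them hold the 9 PI genes.

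Few LADs lay on either side of this cluster. In the 200 kb before it, 0% of the bases lay in LADs of either genotype, and the neighboring gene *Sprn* was II. In the 200 kb after it, WT LADs covered 23.2% and KO LADs 0%. The gene that follows, *Cyp2e1*, which encodes a cytochrome P450 abundant in hepatocytes that oxidizes ethanol and many drugs, was PI.

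The borders of these DRs are GATC sites, the sites at which Dam acts. On chromosome 7 a GATC lay at 100% of the borders of WT-only DRs, and the same held for 97.8% of LAD borders in WT and 99.1% in KO. The bases around both borders of the DR that holds *Olfr530* and of the one that holds *Olfr538* are given to show these sites, read from the plus strand of mm9 with the GATC at the border in capitals. All 4 windows lie outside the spans of protein-coding genes.
Left border of the Olfr530 DR, chr7:147542414-147542477: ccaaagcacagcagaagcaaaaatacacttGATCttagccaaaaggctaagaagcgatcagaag
Right border of the Olfr530 DR, chr7:147579905-147579968: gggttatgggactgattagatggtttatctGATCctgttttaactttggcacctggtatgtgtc
Left border of the Olfr538 DR, chr7:147735852-147735915: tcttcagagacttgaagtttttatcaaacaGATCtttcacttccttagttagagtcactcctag
Right border of the Olfr538 DR, chr7:147780980-147781043: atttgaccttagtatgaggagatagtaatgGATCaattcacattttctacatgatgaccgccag

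Close relatives within the family did not always share a class. Of 28680 pairs of the 240 genes, 57 had coding sequences at least 90% identical. Of these, 47 were in the same class, and in 42 of them both genes were PP, the class of 87.9% of the receptor genes. The same-class share of all pairs is not given here, so the count of 47 says little about relatives. The other 10 pairs were in different classes, and 7 of the 10 had both genes in the cluster *Olfr522* to *Olfr541*. The most alike of the 10 was *Olfr243* (PP) with *Olfr628* (II), at 97.5%. The others were *Olfr516* (PI) with *Olfr519* (PP) at 93.3%, *Olfr530* (PI) with *Olfr533* (PP) at 91.8%, *Olfr525* (PP) with *Olfr532* (PI) at 91.5%, *Olfr512* (PP) with *Olfr516* at 90.1%, and *Olfr538* with *Olfr46*, described next. In the remaining pairs, *Olfr61* (PP) was 90.9% identical to *Olfr541* (PI), and *Olfr53* (PP) was 90.6% identical to *Olfr539*, 90.2% to *Olfr541* and 90.04% to *Olfr45*, all PI.

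*Olfr538* and *Olfr46* had opposite LAD calls. *Olfr538* (chr7:147760030-147760986) lay whole in a WT LAD and outside KO LADs. *Olfr46* (chr7:147796067-147797023), 35.1 kb further on, lay whole in a KO LAD and in a WT gap of 8.82 kb, which is too short for a DR, so that it was II. Of the 50-base tags at GATC sites, 3 of 6 in the *Olfr538* span and 5 of 6 in the *Olfr46* span were unique. The share was 55.1% in the DR of *Olfr538* and 78.6% in the WT gap of *Olfr46*. Over the coding sequences, on the plus strand, the 2 genes were 91.9% identical. This value counts the difference in length (930 and 954 bases) as differing bases. The stretch of 150 aligned coding bases without gaps in which the genes differed most is given to show how alike their sequences are. Capitals mark the 11 bases at which they differ, and the stretch covers coding bases 148 to 297 of *Olfr538* and 172 to 321 of *Olfr46*.
Olfr538: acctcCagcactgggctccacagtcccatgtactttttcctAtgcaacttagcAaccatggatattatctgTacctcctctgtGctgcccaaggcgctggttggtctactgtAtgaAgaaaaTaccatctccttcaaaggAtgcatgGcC
Olfr46: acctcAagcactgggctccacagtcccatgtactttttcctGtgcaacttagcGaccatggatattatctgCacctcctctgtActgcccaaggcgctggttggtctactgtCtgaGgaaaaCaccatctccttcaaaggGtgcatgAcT

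The II class held receptor genes of different kinds. *Olfr520* and *Olfr521* (chr7:106883655-106916640), a pair outside the clusters, were far from any LAD, at 1813 and 1845 kb from the nearest WT LAD and 397 and 429 kb from the nearest KO LAD. *Olfr522* and *Olfr523*, at the start of the last cluster, stood 21.7 and 7.59 kb outside LADs of both genotypes, and *Olfr544* is described above. These 5 were outside LADs in both genotypes. The other 6 lay in a LAD of 1 genotype, in a stretch shorter than 10 kb. *Olfr1349*, *Olfr545*, *Olfr628* and *Olfr518* lay in WT LADs, and *Olfr1344* and *Olfr46* lay in KO LADs. Counted by LADs alone, 212 receptor genes overlapped LADs in both genotypes, 19 in WT only, 4 in KO only and 5 in neither.

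The 9 genes outside WT LADs were *Olfr520*, *Olfr521*, *Olfr522*, *Olfr523*, *Olfr543*, *Olfr544*, *Olfr692*, *Olfr1344* and *Olfr46*. Apart from the lone pair and *Olfr46*, they stood at the ends of clusters. Their spans had a median GC content of 53.7%, from 49.5 to 60.4%, and 8 of the 9 were above 50%. The 231 genes in WT LADs had a median of 45.3%, from 31.1 to 58.1%, and 25 of them were above 50%. In the 50 kb around each gene the medians were 44.2% and 38.8%. The PI genes had a median span GC of 48.6% and the PP genes of 45.1%, and within the cluster *Olfr522* to *Olfr541* the medians were 49.3% for 9 PI genes and 50.4% for 7 PP genes. Within that cluster the ranges of PI and PP genes overlapped. The clusters as a whole had 36.03 to 42.05% GC, with the highest value in the last one. The cluster *Olfr1344* to *Olfr1350*, with 0 PI genes, had 41.83%. The part of base composition in the calls was not tested.

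Across the genome the receptor genes of chromosome 7 resembled most of the family. Of the 808 *Olfr* genes outside chromosomes 7 and 19, 84.4% were PP and 7.43% were PI. On chromosome 2, which has the most *Olfr* genes (286), 95.8% were PP and 10 genes (3.50%) were PI. On chromosome 19, 41.5% of 65 genes were PP and 32 (49.2%) were PI, shares close to the 36.8% and 47.4% of the cluster *Olfr522* to *Olfr541*. The other genes of chromosome 7 were 21.8% PP, 5.57% PI, 12.5% IP and 58.8% II, so that the receptor genes differed from their chromosome mainly in the PP and II shares. No test can be given for these differences.

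**Figure D4:**
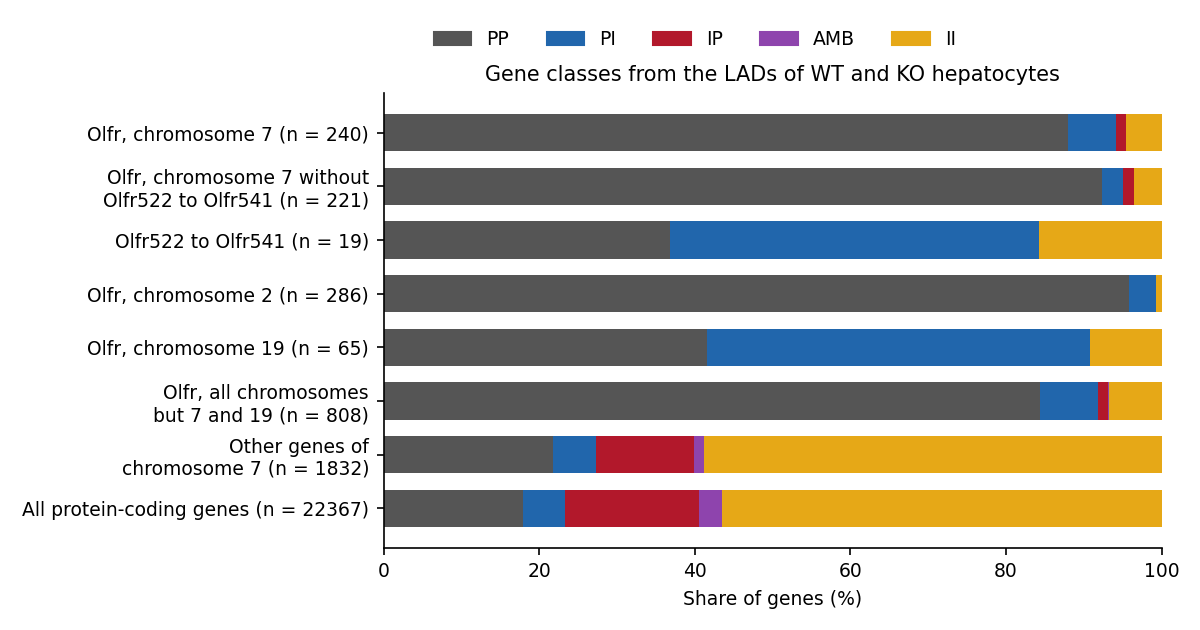
Share of genes (x axis, in percent) in each class for the receptor genes of chromosome 7, with and without the cluster *Olfr522* to *Olfr541*, and for the groups they are compared with (n in the labels). The last cluster has 36.8% PP genes, and the chromosome without it has 92.3%.

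The same rule found 33 *Olfr* clusters in the genome, of which 32 held WT LAD bases. Ranked by the share of those bases outside KO LADs, *Olfr522* to *Olfr541* was number 6. Above it stood the cluster of chromosome 19 at 50.1% and 4 clusters of 5 to 9 genes. The cluster *Olfr30* to *Olfr311* of chromosome 11 followed at 44.89%, next to 44.9% in the last cluster of chromosome 7. The other 5 clusters of chromosome 7 ranked from 16 to 28. Over the 25 clusters outside chromosomes 7 and 19, the median was 7.06%, with a range from 0 to 97.6%.

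**Figure D5:**
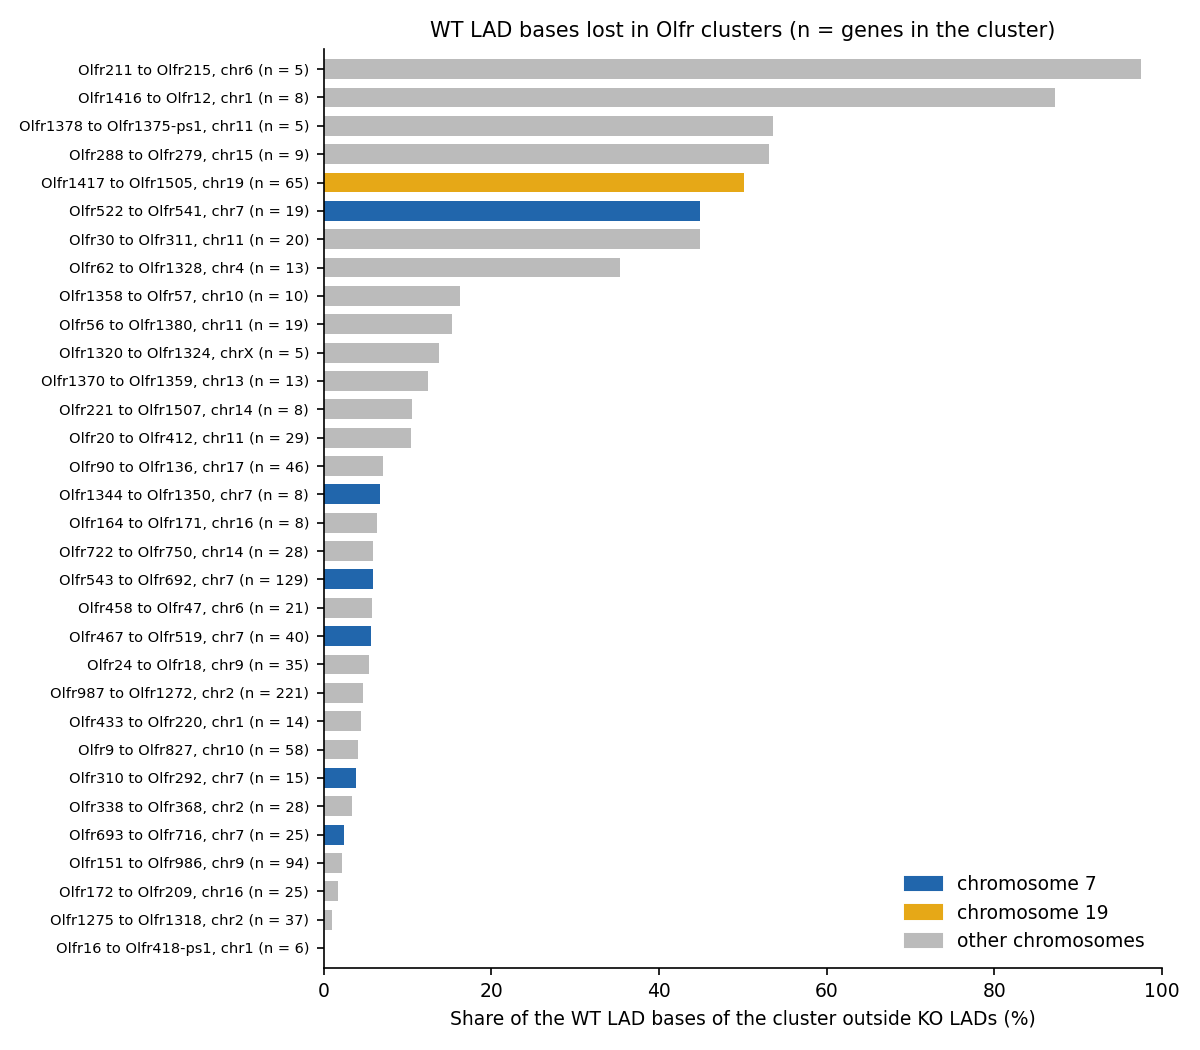
Share of the WT LAD bases of each *Olfr* cluster that lay outside KO LADs (x axis, in percent), for the 32 clusters with WT LAD bases, with the chromosome and the number of genes in the labels. Of the chromosome 7 clusters, *Olfr522* to *Olfr541* stands among the upper ones at 44.9%, and the others lie at 6.70% or below.

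Single receptor genes held few GATC sites, whereas the WT-only DRs on the clusters held 22 to 151 each. A receptor gene had a median of 3 GATC sites in its span, 2 genes had none, and none of the 15 PI genes was without a site. Sites were denser in the spans (3.03 per kb) than on the chromosome (2.43 per kb). Because the family is repetitive, the share of 50-base tags at GATC sites that occur once among all such tags of the genome was computed as well. It was 86.9% in the receptor spans, 89.0% in those of PP genes and 94.7% in those of PI genes, against 79.5% on chromosome 7. Over whole clusters it was 75.1%, and it was 77.8% in the WT-only DRs on them and 74.7% in the LADs that the genotypes shared. The cluster *Olfr522* to *Olfr541* had 75.9%, within the range of 73.2 to 82.8% of the other clusters. Single regions were lower: 55.1% in the DR of *Olfr538* and 63.6% in that of *Olfr514* and *Olfr516*. Of the KO-only DRs on IP genes, that of *Olfr631* had 28.6%, that of *Olfr692* 52.3% and that of *Olfr543* 97.9%. The part of tag uniqueness in the calls was not tested.

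Most PI calls lay in gaps of 11.3 to 45.1 kb between KO LADs. A join across gaps of up to 50 kb closes all of these by its rule, so its outcome restates their length. When LADs were joined across gaps of up to 50 kb, the PI receptor genes fell from 15 to 3, namely *Olfr539*, *Olfr45* and *Olfr541*, and the PP genes rose to 230. The PI share of all genes fell from 5.43% to 2.81% under the same setting, and their PP share rose from 17.9% to 25.8%. When the 100 kb around each gene was used in place of its span, 43 genes were PI and 20 were IP, against 9.71% and 27.1% of all genes, and in the last cluster all 19 were PI. With a minimum of 20 kb for a DR, 12 genes were PI, 8 of them in the last cluster, against 3.25% of all genes.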

How the data were processed

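DamID libraries from WT and *Tm7sf2*-KO primary hepatocytes (1 Dam-LaminB1 and 1 Dam only library per genotype) were compared through 4 deposited lists of genomic intervals. The authors mapped reads to mm9, computed for each *DpnI* fragment a log2 ratio (Dam-LaminB1 over unfused Dam) and segmented these values into LADs with DNAcopy. BWA and limma are named in the submitters' processing notes, without versions, and the read length is not given in the sources used here. The deposited files used here hold coordinates only, with no value per region. Repeating the subtraction of the LAD lists with a 10 kb minimum returned 7787 of 7787 WT-only and 8208 of 8208 KO-only DRs.

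Gene spans came from the GENCODE annotation of NCBIM37 (the mm9 assembly), and classes required an overlap of 1 base. Positions are 1-based. Work was done in Python 3.11.15 with numpy 2.4.6, pysam 0.24.0, edlib 1.3.9.post1 and samtools 1.23.1, and figures in matplotlib 3.10.9. Identity is 1 minus the edit distance divided by the length of the longer coding sequence, so a difference in length lowers it. The longest coding sequence of each gene was used. GATC tags of 50 bases, the length assumed here, were called unique when they occur once in the genome on either strand. The interval, class and tag steps were tested on simulated data.

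The genes and lists were chosen with earlier results of these data known. The rule for named genes took every AMB gene, up to 15 PI and 15 IP genes by the share of the span in DRs, the first and last gene of each cluster, the longest gene, all genes outside clusters, the *Hbb* and *Trim* genes, the 10 most identical pairs in different classes, and the longest DRs on receptor genes. The other genes named were added after their values were seen. With 1 library per group no test was made, and values of the PI genes of the last cluster under other settings were added after seeing the data.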

Additional observations from a re-analysis of the deposited data

How the results depend on the processing

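No paired analysis was possible because each genotype has 1 library of each construct and no test was made, and no library could be left out. The counts of receptor genes in each class moved by at most 1.5 times when 10% or 50% of the span, the transcription start alone, DRs of at least 20 kb or the pseudogenes were used, with IP falling from 3 to 2 under the transcription start and the 20 kb minimum. The PI share of all genes was 2.23% under the 50% and transcription start settings, against 5.43%. With 100 kb windows, 43 genes were PI, 20 IP, 2 II and 1 AMB, and 19 were PI in the last cluster (all genes 9.71% PI, 27.1% IP, 42.2% II and 6.06% AMB). With LAD differences of any length, 22 were PI, 5 were IP and 5 were II (all genes 6.0% PI, 17.5% IP and 56.0% II). With LADs joined across gaps of up to 50 kb, 3 were PI, all in the last cluster, and 4 were II (all genes 2.81% PI and 54.0% II). Most PI calls thus depend on whether KO gaps of up to 50 kb count as loss.

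Bases of the receptor spans in WT LADs were 93.5% as reported from the lists, 93.2% with LADs of at least 20 kb and 97.1% with joined LADs. In KO LADs they were 89.9%, then 89.4% and 98.0%, and 90.2% with pseudogenes. Cluster bases in WT LADs moved from 97.5% to 97.2% (LADs of at least 20 kb), 98.1% (joined), 98.3% (cluster gap of 250 kb) and 94.9% (1000 kb), and in KO LADs from 89.8% to 88.3%, 97.4%, 91.2% and 87.2%. Unique tags in the receptor spans were 81.7% at 36 bases and 92.1% at 100 bases. Without read numbers, a gap of KO LADs at lower depth cannot be told apart from a loss.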
